A study of Mus musculus with 6 samples.

Results

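Reelin, its receptors and the adaptor Dab1 were read here as 4 genes: Reln, Vldlr, Lrp8 (the gene of Apoer2) and Dab1. They were taken as every probe set that the platform annotation assigns to 1 of these symbols, 16 of 45101 in all. Reln has 2 of them, Vldlr 6, Lrp8 3 and Dab1 5. A probe set is a group of short probes on the array that together report 1 transcript region, and the 16 are not replicates of each other, since those of a gene read the same RNA. Total RNA came from 1 frontal cortical lobe per array, taken from mice aged 21 days of mixed C57BL/6 and 129 strain. There were 6 arrays: a Reln knockout (KO), a Dab1 KO, a double KO without Apoer2 and Vldlr, a Vldlr KO, an Apoer2 KO and a wild type (WT). The double KO, both single receptor KOs and the WT came from 1 cross of double heterozygotes. The labels name no cross for the Reln KO and the Dab1 KO, and no WT array is labelled as their littermate. Per the labels, mice were recognised by the reeler phenotype. Each genotype has 1 array, and the labels name neither the allele nor the deleted part of any gene. The Reln, Dab1 and double KOs are called reeler models below.

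Reelin is a large secreted glycoprotein that guides where migrating neurons settle in the cortex and cerebellum. It binds Vldlr and Apoer2, both members of the LDL receptor family, and the bound receptors bring about tyrosine phosphorylation of Dab1, which docks on their cytoplasmic tails. After birth reelin is made by interneurons of the cortex and by granule cells of the cerebellum. In mice, Dab1 protein is broken down after the signal and is known to accumulate where the ligand or the receptors are missing. The arrays measured RNA and give no protein level. The question was whether loss of any one of these genes goes with a change in the RNA of the others.

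Median signals were 86.5 to 92.3 across the 6 arrays. The 27 probe sets for Bacillus genes, which have no target in mouse RNA, reached 28.4 to 39.6 at their highest on each array and stand for background. A filter at 89.0, the median of the probe sets' mean signals, was passed by 12 of the 16. The dimmer Reln probe set, 1458020_at, stayed below 39.6 on every array and gives a bound, not a level. By their mean over the 6 arrays, 10 of 10 cortical excitatory neuron genes passed that filter, but so did 12 of 13 genes of cerebellar granule cells. A pass does not show a signal on each array. Fat2, a granule cell gene, passed but read 36.4 on the Dab1 KO and 8.4 on the double KO array, under their background. The labels call every animal male, yet Xist read 3368 to 4006 on 5 arrays and 124.9 on the Apoer2 KO array, which alone had a high signal for the Y-linked Eif2s3y (367.5, against at most 7.7). This array enters every test of Lrp8 loss, and the part of sex in those tests was not tested.

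Reln RNA was nearly gone where Reln was knocked out. Probe set 1449465_at read 79.9 on the Reln KO array, against 1547.0 on the Dab1 KO, 1498.3 on the double KO, 1880.0 on the Vldlr KO, 1819.7 on the Apoer2 KO and 1669.0 on the WT array. The remaining signal was 4.75% of the mean of the other arrays (1682.8 ± 166.1, SD, n = 5) and lay above the highest background reading of that array, 32.1. On the log2(signal + 28.1) scale used for all fits Reln fell by 3.98 (SE 0.14, adjusted p = 1.37e-05 in limma, Reln KO array against the other 5). Of 22519 probe sets past the signal filter, 0.901% passed in that fit. In each such fit arrays of different genotypes stand in for replicates, so p-values measure the spread between these arrays, and a lone array is assumed to vary like the rest.

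**Figure D1:**
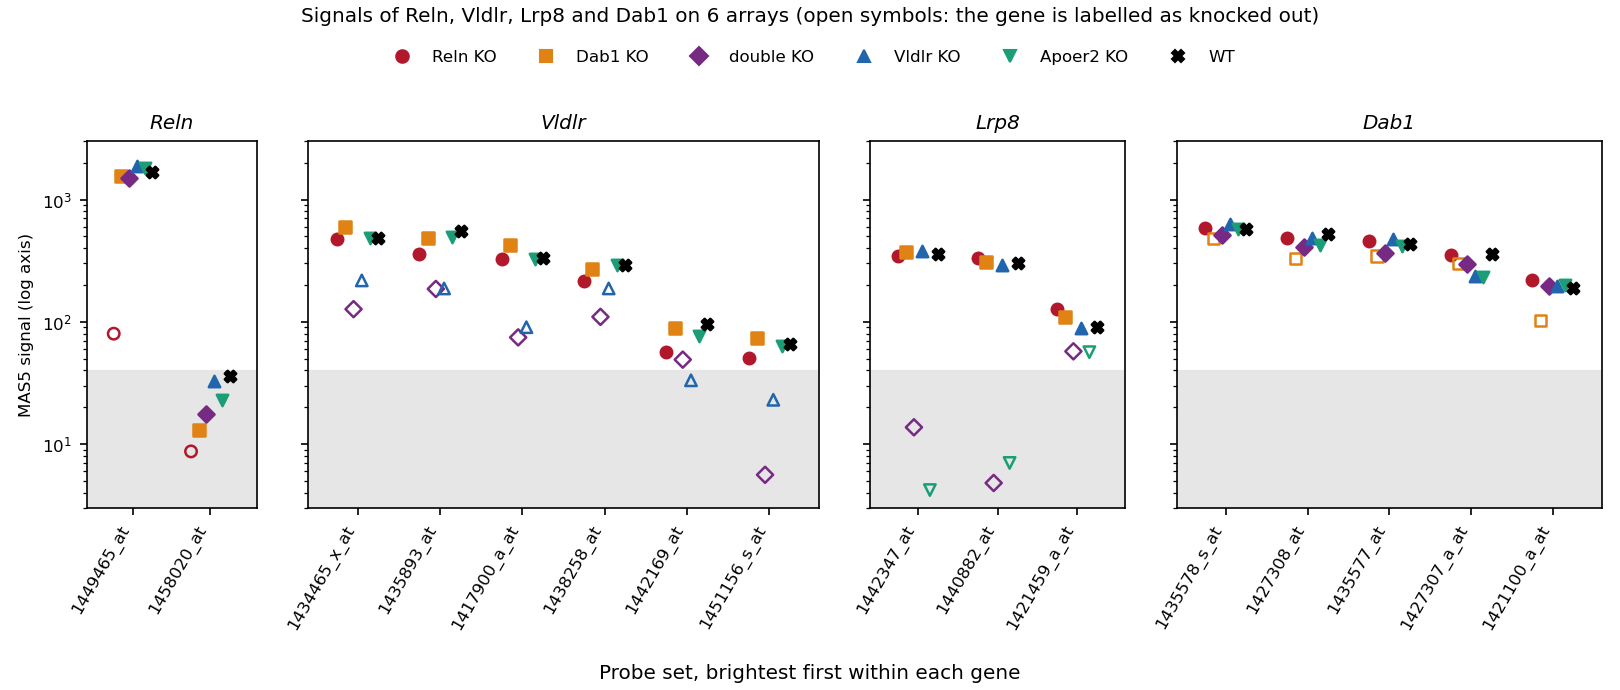
MAS5 signal (log axis) of the 16 probe sets of Reln, Vldlr, Lrp8 and Dab1 on the 6 arrays, 1 point per array; open symbols mark arrays where the gene is labelled as knocked out and grey marks signals up to 39.6, the highest background control. Open symbols lie below all filled ones at 15 of the 16 probe sets, the exception being 1427307_a_at of Dab1. The 15 include 1458020_at of Reln, where all signals lie in the grey range and their order is not read as a loss. Of all 45037 probe sets, 18.2% were lowest on the Reln KO array and 16.9% on the Dab1 KO array. The arrays without Vldlr were both lowest at 6.38%, and those without Apoer2 at 5.41%.

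Among the receptors, Lrp8 gave the most complete loss. Probe set 1442347_at read 13.7 on the double KO and 4.2 on the Apoer2 KO array, against 342.4 on the Reln KO, 370.1 on the Dab1 KO, 379.8 on the Vldlr KO and 357.8 on the WT array. Probe set 1440882_at read 4.8 on the double KO and 7.0 on the Apoer2 KO array, against 332.5, 305.7, 290.5 and 304.8 on the Reln KO, Dab1 KO, Vldlr KO and WT arrays. All 4 readings without Apoer2 lie under the background of their arrays, so they are bounds. In limma, the 2 arrays without Apoer2 against the other 4, these probe sets had log2 differences of -3.41 (SE 0.15) and -3.31 (SE 0.14), each with an adjusted p = 7.91e-05. They were 2 of 4 called probe sets in all, 0.0178% of those tested. The size of these differences is set by the pseudocount, with -5.38 and -5.50 at a pseudocount of 1 and -2.20 and -2.06 at 89.4, and both were called at each.

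The third Lrp8 probe set behaved otherwise. Probe set 1421459_a_at read 57.3 on the double KO and 56.4 on the Apoer2 KO array, against 127.7, 109.1, 89.6 and 91.3 on the Reln KO, Dab1 KO, Vldlr KO and WT arrays. The arrays without Apoer2 were below all others here too, but kept 54.9% and 54.0% of the mean signal of the others, well above background. It did not pass the signal filter over all arrays. With no filter its log2 difference was -0.63 (SE 0.19, adjusted p = 1.0 in limma).

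Vldlr RNA was reduced where Vldlr was knocked out, but a part of its signal stayed at most probe sets. The largest log2 difference was at 1417900_a_at, which read 74.5 on the double KO and 90.3 on the Vldlr KO array, against 326.2, 424.2, 327.1 and 333.3 on the Reln KO, Dab1 KO, Apoer2 KO and WT arrays. It fell by 1.78 on the log2 scale (SE 0.15, adjusted p = 0.0146 in limma), 1 of 3 called probe sets in that fit, 0.0133% of all. This call did not hold with no signal filter, or without the double KO, Vldlr KO or Apoer2 KO array, while the log2 difference stayed between -1.88 and -1.68.

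The other 3 Vldlr probe sets past the filter did not pass. Probe set 1434465_x_at read 126.8 on the double KO and 217.9 on the Vldlr KO array, against 472.5 to 600.0 on the others (log2 difference -1.46, adjusted p = 0.151 in limma). Probe set 1435893_at read 185.6 and 187.3 on those arrays, against 357.6 to 551.6 (-1.20, adjusted p = 0.201 in limma). The groups did not overlap at any of the 6 Vldlr probe sets, as both arrays without Vldlr were lowest at 6.38% of all 45037. All 4 tested ones had an unadjusted p under 0.05, against 2.72% of all probe sets tested.

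The share of Vldlr signal left varied by probe set and by array. On the Vldlr KO array it ran from 25.6% of the mean of the carrying arrays at 1417900_a_at to 70.1% at 1438258_at. On the double KO array it ran from 21.1% at 1417900_a_at to 41.1% at 1438258_at over the 4 probe sets past the filter, and the double KO array read lower than the Vldlr KO array at all 4. The dim probe sets have no such order, since readings of 5.6 and 23.0 at 1451156_s_at and 33.2 at 1442169_at lie under the background of their arrays. At 1438258_at the double KO array read 109.7, against 187.4 on the Vldlr KO array and 291.0 on the WT array. With 1 array each, these differences have no test.

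None of the Dab1 probe sets passed under its own loss. The clearest was 1421100_a_at, which read 102.1 on the Dab1 KO array, against 217.7 on the Reln KO, 196.8 on the double KO, 197.7 on the Vldlr KO, 201.1 on the Apoer2 KO and 187.8 on the WT array. The other 5 arrays averaged 200.2 ± 10.9 (SD, n = 5), and the Dab1 KO array read 51.0% of that. The log2 difference was -0.81 (SE 0.16, adjusted p = 0.342 in limma, unadjusted p = 0.000778). A second, 1427308_at, read 328.4, against 410.3 to 524.5 on the other arrays (log2 difference -0.47, adjusted p = 1.0 in limma).

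The remaining Dab1 probe sets moved less on the Dab1 KO array. Probe set 1435578_s_at, the brightest, kept 83.1% of the mean of the other 5 arrays (478.5 against 576.0 ± 39.4, SD) and 1435577_at kept 80.2%. Probe set 1427307_a_at kept 101.4%, with 299.8 on the Dab1 KO array inside the range of the others, 233.0 to 361.8. In that fit 0 of the 5 Dab1 probe sets passed in limma, where 0.0533% of all probe sets were called. An unadjusted p under 0.05 was reached by 2 of the 5 and by 4.29% of all. Dab1 RNA was thus still measured at every probe set on the array labelled Dab1 KO.

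The fits that answer the main question compared, for each gene, arrays with and without another member, using those arrays that still carry the gene. The comparison arms held other KO arrays beside the WT, so a change that these KOs share would read smaller. There were 12 pairings of a gene with the loss of another, and 39 readings of probe sets past the filter. None passed an adjusted p of 0.05 in limma, and 1 had an unadjusted p under 0.05. Log2 differences ran from -0.47 to 0.34 with a median of -0.02, and 22 of 39 were below 0. All 39 intervals at 95% lay within -1 and 1, and 17 lay within -0.5 and 0.5. The wider bound means within 2-fold either way for the signal plus the pseudocount, not for the signal itself. For dim probe sets the bound on the signal is wider, since the pseudocount understates their changes. A further 9 readings of dimmer probe sets, with no filter, gave 0 calls and 0 unadjusted p under 0.05.

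**Figure D2:**
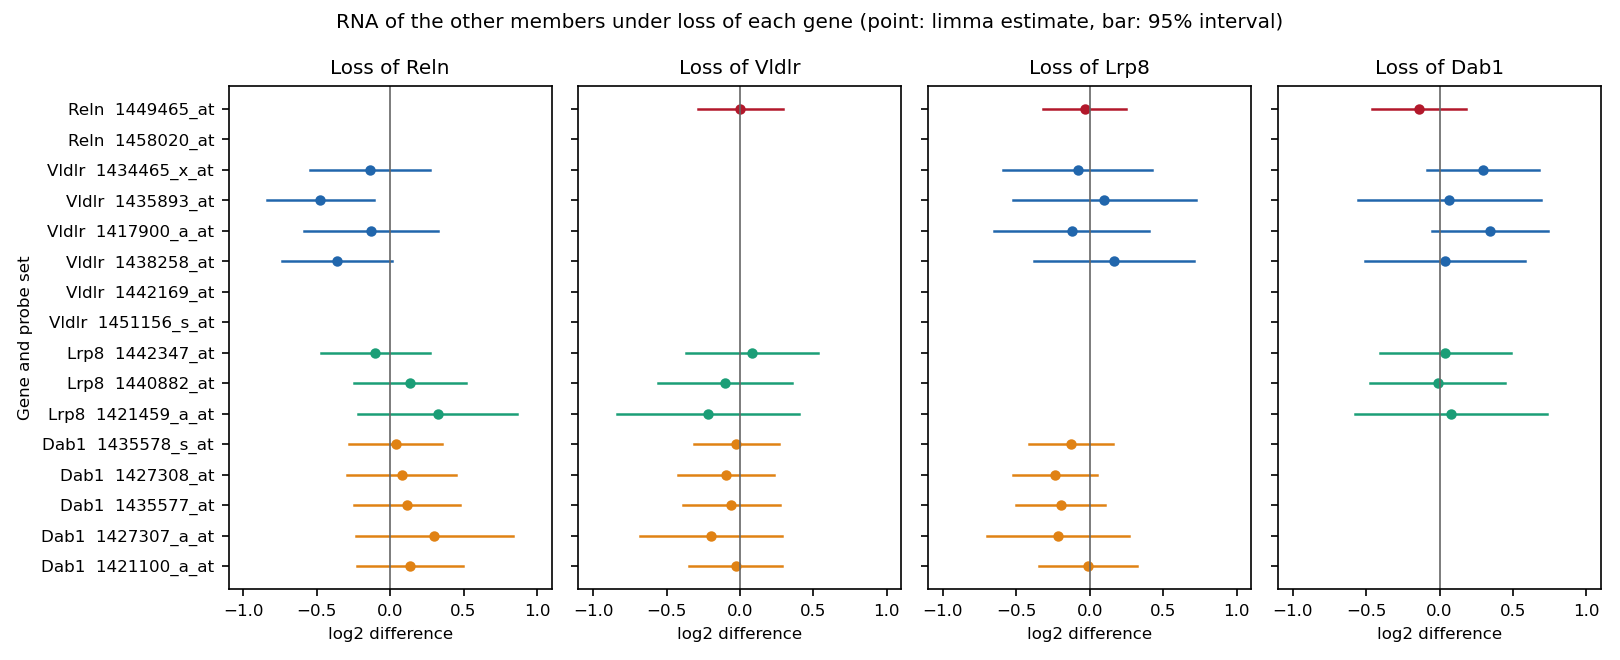
Log2 difference (x axis) of each probe set past the signal filter under loss of Reln, Vldlr, Lrp8 or Dab1, over arrays that still carry the plotted gene; points are limma estimates and bars 95% intervals. All intervals lie between -1 and 1, and 1435893_at of Vldlr under loss of Reln is the 1 whose interval leaves out 0.

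Loss of the ligand went with the lowest of these values, at Vldlr. Probe set 1435893_at read 357.6 on the Reln KO array, against 482.9 on the Dab1 KO, 491.7 on the Apoer2 KO and 551.6 on the WT array. The Reln KO array was the lowest, with a log2 difference of -0.47 (95% interval -0.84 to -0.11, unadjusted p = 0.0179, adjusted p = 0.286 in limma). An unadjusted p under 0.05 was reached by 12.4% of all probe sets in that fit. The Reln KO array was also lowest of the 4 arrays at the other 5 Vldlr probe sets, but at 1417900_a_at by 326.2 against 327.1, and it was the lowest of these 4 at 26.0% of all probe sets. Over the 4 tested Vldlr probe sets the median log2 difference was -0.25, against -0.00065 over all probe sets. In that fit 0 passed, with 0.124% of all probe sets called.

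The other receptor and the adaptor did not show this under loss of Reln. The 3 Lrp8 probe sets had log2 differences of 0.32 (1421459_a_at), 0.14 (1440882_at) and -0.10 (1442347_at). All 5 Dab1 probe sets, which read the same RNA, lay above 0, between 0.04 and 0.30. None passed, where 0.120% of all probe sets did in the Lrp8 fit and 0.755% in the Dab1 fit. At 1435578_s_at, the brightest Dab1 probe set, the Reln KO array read 588.1, between 516.4 and 626.0 on the double KO and Vldlr KO arrays, and its interval was -0.28 to 0.35.

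Loss of Dab1 was set against the ligand and the receptors in turn. Reln at 1449465_at had a log2 difference of -0.14 (95% interval -0.46 to 0.18), with 0.0933% of all probe sets called. Vldlr lay above 0 at all 4 tested probe sets, from 0.04 at 1438258_at to 0.34 at 1417900_a_at, and 0.0133% of all probe sets were called. The Dab1 KO array was the highest of all arrays at 1417900_a_at (424.2) and 1434465_x_at (600.0). The other carrying arrays read 326.2 to 333.3 and 472.5 to 488.7 there. What share of all probe sets was highest on the Dab1 KO array was not counted. At 1435893_at and 1438258_at the Dab1 KO array read below WT (482.9 against 551.6, and 271.3 against 291.0). The Vldlr probe sets therefore disagree on the direction from WT, and none passed in limma. Lrp8 differed least, by -0.01 to 0.08, with 0.00444% of all probe sets called.

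Loss of a single receptor was tested on the other receptor, with 1 array against 3. Under loss of Vldlr, Lrp8 had log2 differences of -0.22 to 0.08, and the Vldlr KO array held the highest reading among the arrays carrying Lrp8 at 1442347_at (379.8) and the lowest at 1440882_at (290.5). In that fit 0.0133% of all probe sets were called. Under loss of Apoer2, Vldlr had log2 differences of -0.12 to 0.16, and 0.0577% were called. At 1417900_a_at the Apoer2 KO array read 327.1 and the WT array 333.3, and at 1438258_at 291.3 and 291.0. No probe set of the remaining receptor passed in either direction.

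Reln and Dab1 were compared over the arrays with and without each receptor, 2 against 3. Reln at 1449465_at differed by 0.003 under loss of Vldlr (95% interval -0.28 to 0.29) and by -0.04 under loss of Apoer2 (-0.32 to 0.25), where 0.0400% and 0.0222% of all probe sets were called. Dab1 lay below 0 at all 5 probe sets under both losses, from -0.20 to -0.02 for Vldlr and from -0.24 to -0.01 for Apoer2. None of these passed in limma, and 0 had an unadjusted p under 0.05. The percentages called were 0.00888% and 0.0178%, and the medians over all probe sets were -0.0043 and 0.0017. The 5 Dab1 probe sets read the same RNA, so their shared direction is not 5 separate results.

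One Dab1 probe set differed from its partners in the receptor cross. Probe set 1427307_a_at read 298.0 on the double KO, 236.8 on the Vldlr KO and 233.0 on the Apoer2 KO array, against 361.8 on the WT array. All 3 arrays without a receptor read below WT, but the double KO lay near the mean of the 5 arrays that carry Dab1 (295.7). The Dab1 KO array with 299.8 was no lower than the double KO. The Reln KO array read 349.1, near WT. Its SD over the 5 arrays that carry Dab1 was 0.27 on the log2 scale, the largest of the 5 Dab1 probe sets, where the median over all probe sets was 0.17.

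The reeler models that still carry a gene were also compared with the other carrying arrays as 1 group. Reln at 1449465_at read 1547.0 on the Dab1 KO and 1498.3 on the double KO array, against 1880.0 on the Vldlr KO, 1819.7 on the Apoer2 KO and 1669.0 on the WT array. The groups did not overlap, as was so in this direction for 12.6% of all 45037 probe sets, and the log2 difference was -0.23 (95% interval -0.42 to -0.04, unadjusted p = 0.0244, adjusted p = 0.412 in limma), with 0.124% of all probe sets called and 10.6% at an unadjusted p under 0.05. That unadjusted p did not stay under 0.05 with no trend, against WT alone, or without the Dab1 KO, double KO, Vldlr KO or Apoer2 KO array. Granule cell genes of the cerebellum were lower on the same arrays. Their summed signal over 13 genes was 8585 to 9295 in the 3 reeler models, against 16801 to 20132 in the other 3 arrays. In limma over these groups, where 0.120% of all probe sets were called, 8 of the 12 tested genes passed, all 8 lower. They included Fat2, a granule cell protocadherin (log2 difference -3.21), and Gabra6, a GABA-A receptor subunit (-3.07). Fat2 read 36.4 on the Dab1 KO and 8.4 on the double KO array, under their background, so the size of its difference depends on the pseudocount. Of the tested granule cell genes Rbfox3, a general neuronal gene, stood highest (0.02) ahead of Gabrd (-0.90). The part of these cells in the Reln reading was not tested. In whole tissue, fewer cells of a type and less RNA per cell cannot be told apart.

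**Figure D3:**
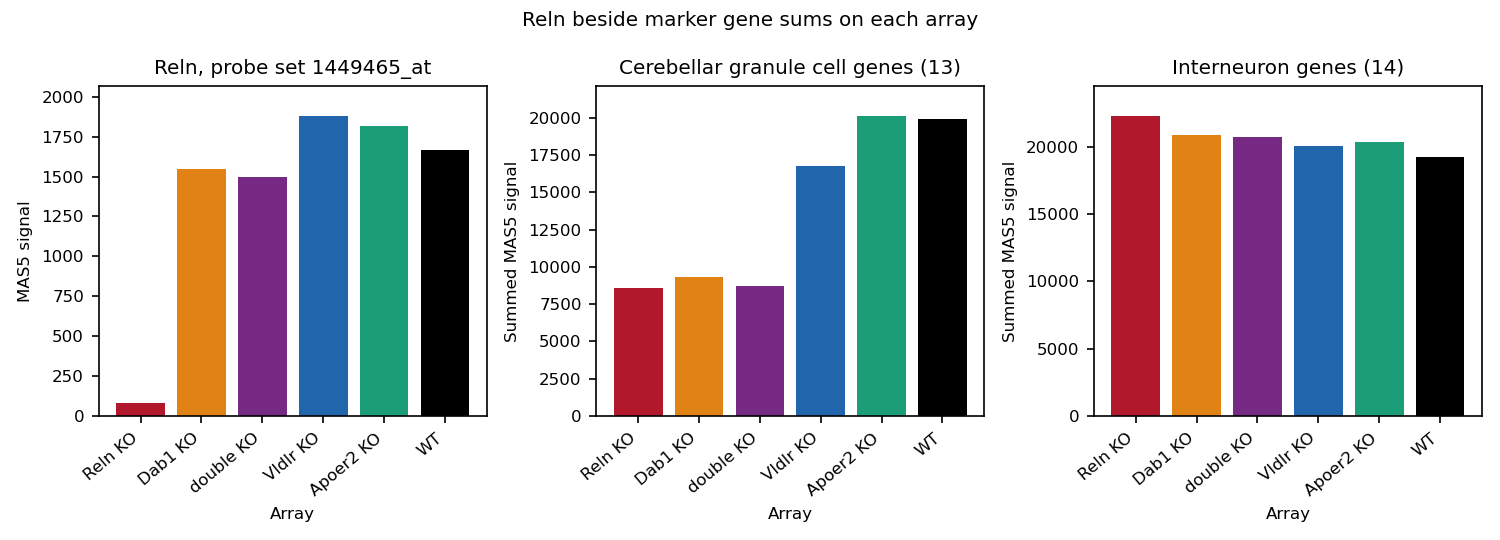
Signal of Reln at 1449465_at, summed signal of 13 cerebellar granule cell genes and of 14 interneuron genes on each array (bars start at 0). Granule cell sums are 8585 to 9295 in the reeler models and 16801 to 20132 in the other arrays, while Reln on the Dab1 KO and double KO arrays is 1547.0 and 1498.3.

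Genes of interneurons, the other known source of Reln, summed higher in the reeler models, with none passing. Their sum over 14 genes was 20734 to 22278 in the reeler models, against 19266 to 20313 in the other arrays. In limma 0 of the 14 tested genes passed, where 0.120% of all probe sets were called. Npy, a neuropeptide (log2 difference 0.54), and Gad2, an enzyme of GABA synthesis (0.43), were highest. Calb2, a calcium-binding protein that granule cells also express (-0.47), and Pvalb (-0.31) were lowest. Among Cajal-Retzius genes, which mark the reelin-secreting cells of the embryonic cortex, 5 of 8 lay under the signal filter, Trp73 among them with 38.4 to 63.0. Their sum was 1837 to 2192 in the reeler models, against 2598 to 2662 in the other arrays, and Calb2, which stands in both lists, gave most of it. Genes of the meninges also summed lower, 1987 to 2066 against 2409 to 2546, with 0 of 7 passed in the same fit. These sums did not overlap between the groups, but the share of all probe sets that separate this way was not counted. The part of interneurons, Cajal-Retzius cells and meninges in the Reln reading was not tested either.

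Receptors and adaptor did not pass in the reeler models that carry them. Vldlr differed by -0.31 to 0.16 over 4 probe sets (Reln KO and Dab1 KO against Apoer2 KO and WT). Lrp8 differed by -0.05 to 0.30 over 3 probe sets, against Vldlr KO and WT. Dab1 differed by -0.10 to 0.23 over 5 probe sets (Reln KO and double KO against the 3 other carrying arrays). The percentages of all probe sets called were 0.133%, 0.00444% and 0.142%. Within the 13 readings of these 4 fits 0 passed in limma and 1, that of Reln, had an unadjusted p under 0.05. At 1442347_at the 4 arrays that carry Lrp8 had an SD of 0.06 on the log2 scale, against a median of 0.17 over all probe sets.

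Each mutant array was also described against WT, with a difference of 1.5-fold as the mark. These 5 comparisons share the WT array, so its own deviation enters all of them. Of the 11 filter-passing probe sets whose gene the Reln KO array carries, 1 was past the mark, the Vldlr probe set 1435893_at at -0.59, where 10.9% of all probe sets were past it. On the Dab1 KO array 0 of 7 were (7.30% of all), on the double KO 0 of 6 (6.71%), on the Vldlr KO 0 of 8 (5.53%) and on the Apoer2 KO 0 of 10 (2.97%). The closest below the mark were 1427307_a_at of Dab1 on the Apoer2 KO (-0.58) and Vldlr KO arrays (-0.56). With a pseudocount of 1 both were past it.

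**Figure D4:**
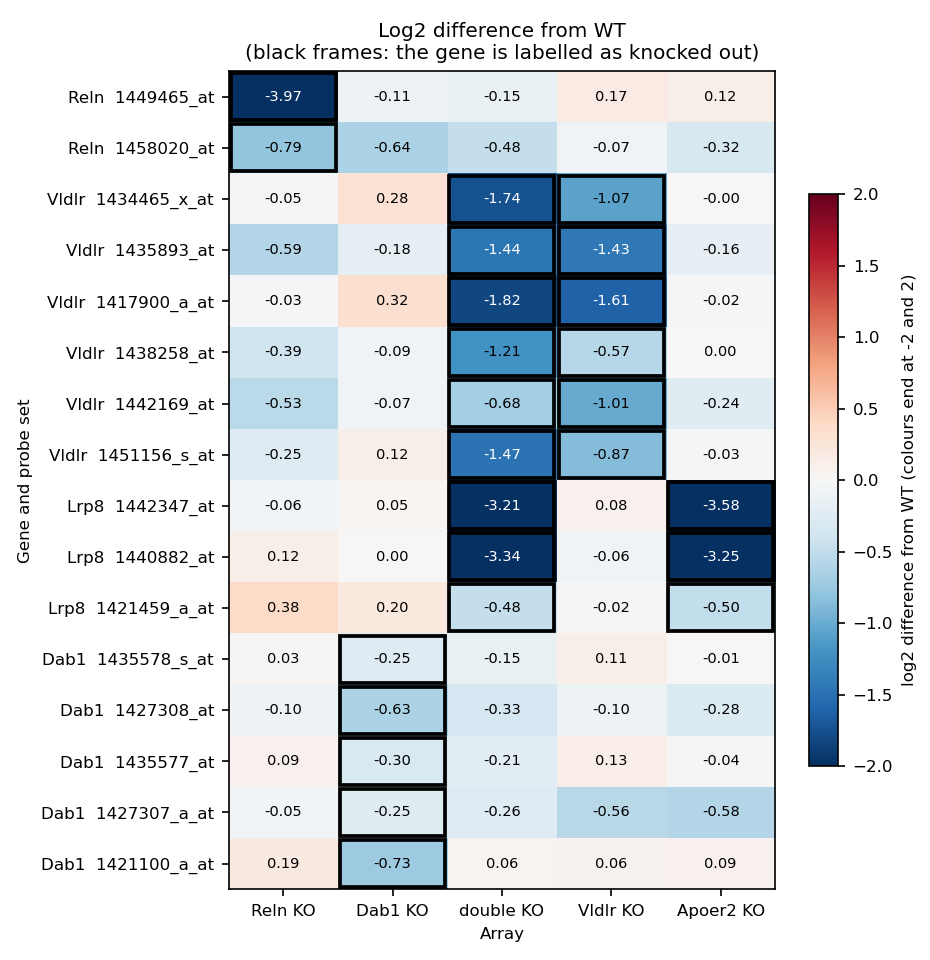
Log2 difference from the WT array of each probe set (rows) on each mutant array (columns), printed in each cell; black frames mark arrays where the gene is labelled as knocked out. Framed cells run from -3.97 (Reln at 1449465_at) to -0.25 (Dab1 at 1435578_s_at and 1427307_a_at), while unframed cells of filter-passing probe sets run from -0.59 to 0.32.

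The genes beside each targeted gene were read in the same fits. In mice of mixed background such a locus can carry linked chromosome of its founder strain. The labels name no allele, so targeted here means only that the gene is labelled as knocked out. The 5 nearest protein-coding genes with a probe set on each side were taken, by their order in RefSeq's gene table for GRCm38.p6. Over all probe sets, 0.901%, 0.0133%, 0.0178% and 0.0533% were called in limma under loss of Reln, Vldlr, Lrp8 and Dab1. An unadjusted p under 0.05 was reached by 13.5%, 2.72%, 2.11% and 4.29%. Of the 40 neighbours 26 passed the signal filter, and 0 of these passed in limma, with 0 unadjusted p under 0.05. So few genes could show 0 calls at those shares. Beside Reln the log2 differences ran from -0.24 for Srpk2, a kinase of splicing factors, to 0.17 for Dnajc2, a ribosome-associated chaperone. Beside Vldlr they ran from -0.04 (Pum3) to 0.27 for Rfx3, a transcription factor of ciliated cells, and beside Lrp8 from -0.23 (Dmrtb1) to 0.19 (Podn). Beside Dab1 they ran from -0.18 for Slc35d1, a nucleotide sugar transporter, to 0.08 for Plpp3, a lipid phosphatase. Dab1 and Lrp8 lie on 1 chromosome with 32 protein-coding genes between them.

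**Figure D5:**
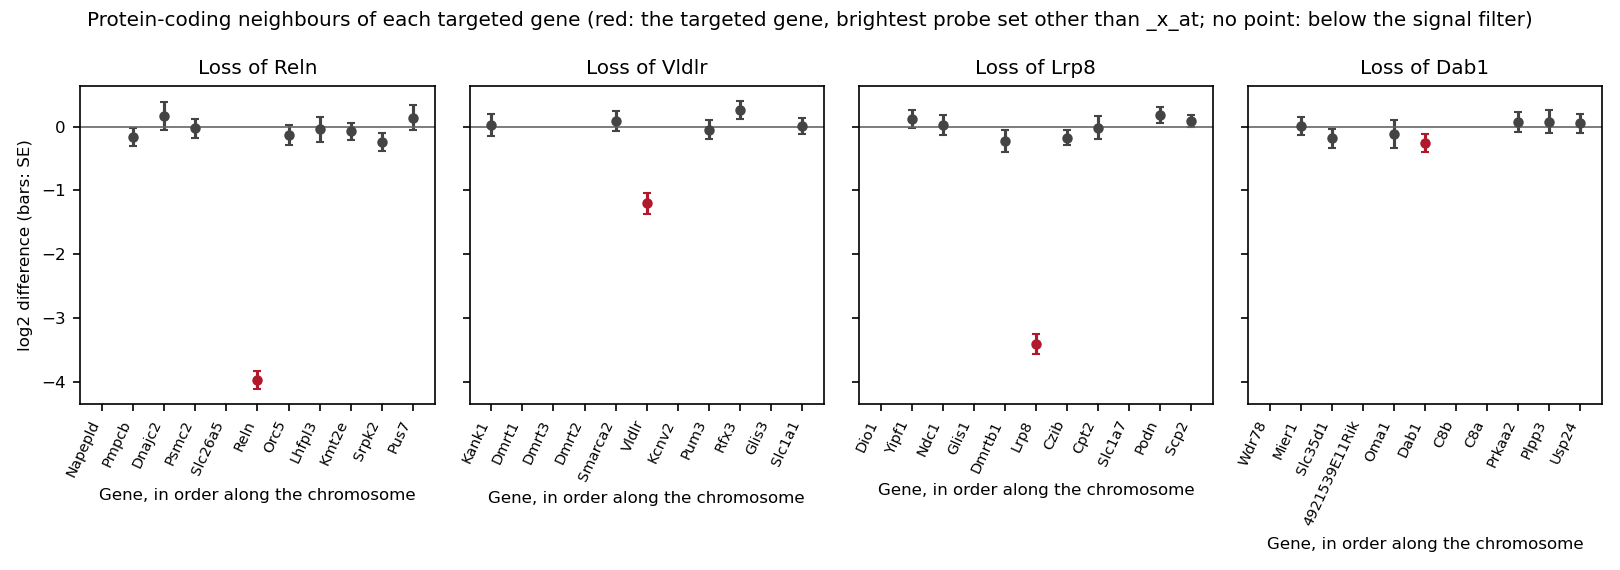
Log2 difference (y axis, bars are SE) of each targeted gene (red, brightest probe set other than those ending in _x_at) and its neighbours in chromosome order under loss of that gene, over all 6 arrays. Neighbours lie between -0.24 and 0.27, against -3.98 for Reln, -1.20 for Vldlr, -3.41 for Lrp8 and -0.25 for Dab1.

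Genes with the most similar pattern over the 6 arrays were taken by Pearson's r of log2 signals among 11495 other genes. With 6 arrays such values are a description, and 121 genes reached 0.95 with Reln. The closest to Reln were Lgi2, a secreted synaptic protein (r = 0.994, 311.3 on the Reln KO array, against 572.4 to 657.6 on the others), Soga3 (0.994, 137.1 against 538.4 to 674.9) and Asrgl1, an asparaginase (0.993, 466.6 against 763.2 to 848.6). All 3 were lowest on the Reln KO array. Such low readings where a member is lost follow from choosing genes by likeness to that member, here and below. Nearest to Vldlr at 1435893_at were Nup160, of the nuclear pore (0.996), Prrc2c (0.980) and Rwdd4a (0.972). For Lrp8 at 1442347_at they were Defa39 (0.988), the protease gene Furin (0.974) and Azi2 (0.972), and Furin read 175.7 and 181.0 on the arrays without Apoer2, against 233.0 to 252.5. For Dab1 at 1435578_s_at they were Epha10, an ephrin receptor (0.994), Rcc1l (0.984) and the caveolin gene Cav1 (0.977).

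Other genes of the pathway gave no call either. Of 48 listed kinases, adaptors, targets, proteases and other ligands, 44 had a brightest probe set past the filter. In the 3 reeler models against the other 3 arrays 0 rose and 0 fell in limma, where 0.120% of all probe sets were called. An unadjusted p under 0.05 was reached by 5 of the 44 and by 11.0% of all probe sets, so the list was near the background. The median log2 difference was 0.03, against -0.0038 over all probe sets. Highest were Plat, the gene of tissue plasminogen activator, a protease that can cleave reelin (0.35, adjusted p = 0.463), and Gsk3b, the tau kinase kept in check by the pathway (0.34, adjusted p = 0.380). Lowest were Dab2ip, a Ras GTPase activator (-0.44, adjusted p = 0.213), and the integrin gene Itga3 (-0.26, adjusted p = 0.451). Loss of Reln, Vldlr, Lrp8 or Dab1 was also fitted gene by gene, with the double KO counted under both receptors. In each of these fits 0 of 44 passed. Unadjusted p under 0.05 numbered 9, 1, 2 and 1, against 13.5%, 2.72%, 2.11% and 4.29% of all probe sets. The lowest adjusted p of these fits was 0.0625 in limma, for Cdk5r2, an activator of the kinase Cdk5, under loss of Reln (log2 difference -1.09).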

How the data were processed

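Biotinylated cRNA made from the total RNA of 6 lobes went onto 1 array each, per the labels' protocols. What the authors deposited is an intensity per probe set, linear and not logged; the submitters' processing notes name MAS5 and Affymetrix Expression Console. No version or genome build is named there. Symbols are those of the platform annotation, where 34958 probe sets name 1 gene, 932 several and 9211 none. Before each fit 28.1, the 25th percentile of the signals, was added and log2 taken, which understates changes of dim probe sets. Control probe sets were left out, and a fit kept probe sets whose mean over its arrays reached the median of those means. limma 3.58.1 in R 4.3.3 compared 2 groups of arrays with a trended prior, and p-values were adjusted by Benjamini-Hochberg across the whole filtered table, at a threshold of 0.05. The procedure was tested on simulated data. Neighbours, list genes and alike genes, and the members set beside them, were read at the gene's brightest probe set, those ending in _x_at last. The genes named are all members, the 3 most alike genes each, the highest and lowest neighbours, and called or else the 2 highest and 2 lowest genes of a list. Cdk5r2 was named after its value was seen. Members, lists and tests were chosen with earlier results of these data known. Alternatives were a pseudocount of 1 or 89.4, no or a stricter filter, quantile normalization, no trend, an additive model, WT alone, a 2-fold mark, and leaving out arrays. The number of arrays limits the precision.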

Additional observations from a re-analysis of the deposited data

Results flagged for a closer look

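In the receptor cross, loss of Vldlr ran in opposite directions with and without Apoer2 for 5 of the 6 filter-passing probe sets of Reln and Dab1, as it did for 42.2% of all 22519 probe sets. The difference between the 2 effects was not tested, since each rests on 1 array against 1. At Reln 1449465_at the log2 difference was -0.28 without Apoer2 (double KO minus Apoer2 KO) and 0.17 with it (Vldlr KO minus WT), a gap of -0.44. The largest gap was 0.88 at Dab1 1427307_a_at, with 0.32 without Apoer2 and -0.56 with it. Of the other Dab1 probe sets, 1435578_s_at had a gap of -0.26, 1435577_at of -0.30 and 1421100_a_at of -0.092, while 1427308_at had a gap of 0.04 with both effects below 0. The lower and upper quartiles of the gap over all probe sets were -0.19 and 0.21.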

How the results depend on the processing

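No paired analysis was possible because each genotype has 1 array. None of the 12 counts under loss of another member, and none of the 4 counts in reeler models, moved from 0 under any of their 130 and 46 alternatives. The count of 1 Vldlr probe set called under loss of Vldlr was 0 with no signal filter. It was also 0 with the filter at the 75th percentile. In the additive model over all 6 arrays it was 2, where 16 of all 22519 probe sets were called. Leaving out 1 array at a time gave 0 to 2, with 2 without the Reln KO array. The 2 Lrp8 probe sets called under loss of Apoer2 lay below the filter at the 75th percentile, which left 0. The Reln and Dab1 counts under their own loss did not move. Under loss of Reln the pathway count of 0 became 3 in the additive model, where 512 of all 22519 probe sets were called. The pathway count also did not stay at 0 without the WT array or without the Dab1 KO array. Against WT, the 1 member past 1.5-fold on the Reln KO array became 0 at 2-fold, with the median as pseudocount, or after quantile normalization. A pseudocount of 1 gave 1 on the Vldlr KO and 1 on the Apoer2 KO array in place of 0, and no filter gave 1 on the Dab1 KO array. The causes of these moves were not tested, except that the stricter filter tests fewer probe sets.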
